A study of Mus musculus with 10 samples.

Results

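The potassium channel genes comprised 87 of the 19938 genes that had a probe set with 1 gene symbol on the array. They were taken by symbol, as all protein-coding genes whose symbol begins with Kcn, without Kcnj13, Kcnk9 and the antisense RNA Kcnq1ot1. In all, 3 Kcn probe sets without a protein-coding label were left out. Each gene was represented by its probe set with the highest mean level. Of these genes 25 encoded voltage-gated pore-forming subunits (Kcna, Kcnb, Kcnc, Kcnd, Kcnh and Kcnq) and 10 encoded silent voltage-gated subunits (Kcnf, Kcng, Kcns and Kcnv). By symbol, 8 were grouped as the calcium- or sodium-activated class (Kcnma, Kcnn, Kcnt and Kcnu), a label not checked for each gene. A further 14 encoded inward rectifiers (Kcnj), 13 encoded tandem-pore leak channels (Kcnk) and 17 encoded auxiliary or regulatory proteins (Kcnab, Kcne, Kcnip, Kcnmb and Kcnrg).

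RNA came from whole brains of male C57BL/6J mice at postnatal day 70. The ethanol groups were offspring of dams that drank 10% ethanol in water from gestational day 0 until the pups were at postnatal day 10, and the control groups were offspring of dams that drank water. Experiment 1 had 2 ethanol and 2 control arrays, each with pooled RNA of 3 mice, and experiment 2 had 3 ethanol and 3 control arrays, each with pooled RNA of 2 mice, so that each experiment used 12 mice. The design asks whether early exposure is followed by a difference in brain expression in the adult. The sources used here give neither ethanol intake nor the litters behind a pool, and p-values reflect how pools varied.

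Potassium channels let potassium leave or enter a cell down its electrochemical gradient and so set the resting potential and shape each action potential. Voltage-gated channels open on depolarization and repolarize the neuron, calcium-activated channels follow calcium entry, inward rectifiers and tandem-pore channels act near rest, and astrocytes use inward rectifiers to take up potassium released by active neurons. Auxiliary subunits change how the pore-forming subunits gate or reach the membrane.

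Each deposited value is a log2 level of 1 probe set on 1 array, and all differences below are ethanol minus control on that log2 scale with the standard error from limma. For each probe set the mean over experiment 1 equalled that over experiment 2 to within 5.83e-05, so levels cannot be compared between experiments. Correlations between arrays ran from 0.989 to 0.996, and the median standard error of a difference was 0.0806 in experiment 1, 0.0658 in experiment 2 and 0.0519 over both. Neuron markers (6 of 6 measured) averaged 11.97 to 12.07 on the 10 arrays. On the ethanol arrays the lower quartile of the gene probe sets was higher by 0.0595 and 0.0286 in experiments 1 and 2, and the upper quartile was lower (-0.0629 and -0.038). Cerebellar granule cell markers (6 of 6 measured) averaged 10.71 and 10.32 on the ethanol arrays against 10.89 and 10.87 on the controls of experiment 1, and 10.43 to 10.74 against 10.71 to 10.88 in experiment 2. Pituitary markers (7 of 7 measured) were high on both ethanol arrays of experiment 1 (8.10 and 7.23, controls 5.63 and 5.77) and on ethanol replicate 2 of experiment 2 (8.68), while the other arrays of experiment 2 had 6.14 to 6.57. Control replicate 2 of experiment 2 stood apart on olfactory mucosa markers (6 of 6 measured), with a mean of 7.71 where the other arrays of that experiment had 6.37 to 6.63. In pooled whole brain, fewer cells of a type and less RNA per cell cannot be told apart.

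None of the 87 potassium channel genes differed between ethanol and control arrays at adjusted p 0.05 (limma with Benjamini-Hochberg adjustment over 21789 gene probe sets) in experiment 1, in experiment 2 or over both, where 0.00% of all gene probe sets passed. The smallest adjusted p of a channel gene was 0.384 in experiment 1, 0.409 in experiment 2 and 0.306 over both. Differences were small. Over both experiments they ran from -0.19 for Kcnk10 to 0.21 for Kcnmb3, and the median was -0.007, beside -0.008 over all gene probe sets. The median size of a difference, whatever its sign, was 0.052 for the channel genes and 0.053 for all gene probe sets. Differences above 0 were found for 42 channel genes in experiment 1, where 48.2% of all gene probe sets were above 0, for 41 in experiment 2, where 45.1% were, and for 41 over both, where 45.6% were. Under the other scalings these counts ran from 42 to 47 in experiment 1, from 28 to 50 in experiment 2 and from 27 to 51 over both. With the unmoderated linear model 0 channel genes passed the adjusted threshold as well.

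**Figure D1:**
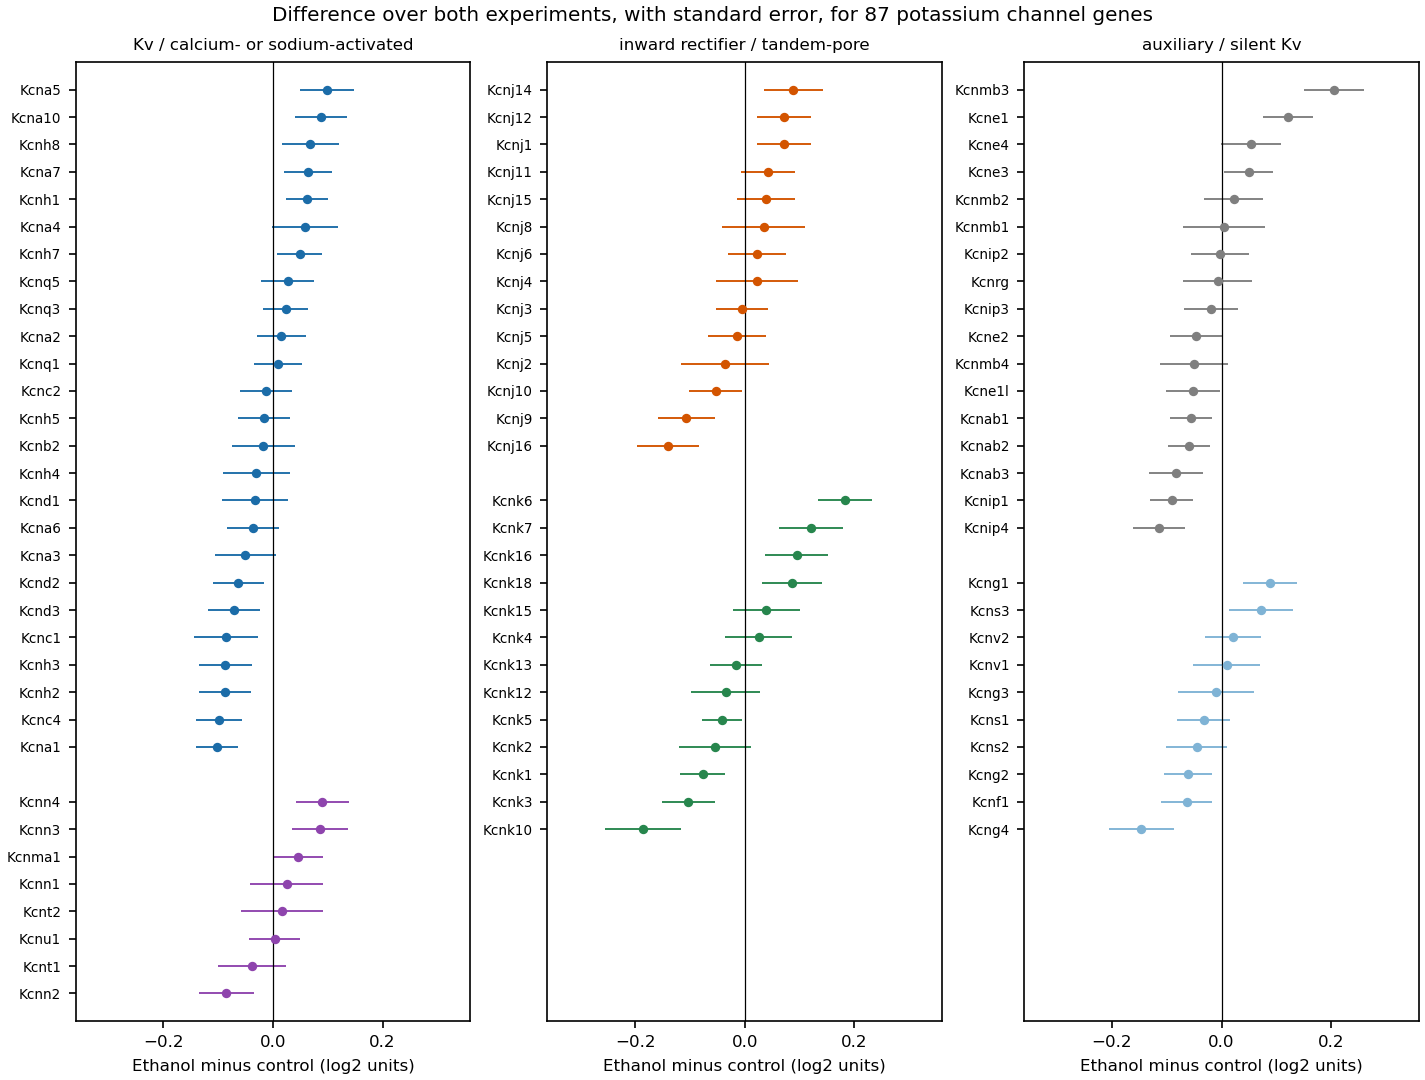
Difference between ethanol and control over both experiments (horizontal axis, log2 units) for each of the 87 potassium channel genes, grouped by structural class; points are limma estimates and bars are 1 standard error. The estimates run from -0.19 (Kcnk10) to 0.21 (Kcnmb3), and each class lies on both sides of 0.

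Counts at an unadjusted limma p under 0.05 were close to those of the whole array. In experiment 1 there were 9 channel genes, or 10.3%, where 8.95% of all gene probe sets passed (5 genes were higher, background 4.02%, and 4 lower, background 4.93%). They were Kcnj1, Kcnmb3, Kcnk6, Kcnk4 and Kcnmb1, which were higher, and Kcnh4, Kcnk10, Kcng4 and Kcnn2, which were lower. In experiment 2 there were again 9, or 10.3%, where 9.97% of all passed (5 higher, background 3.78%, and 4 lower, background 6.19%). They were Kcnk6, Kcnj12, Kcnmb3, Kcnma1 and Kcne1, which were higher, and Kcna1, Kcnc4, Kcnj16 and Kcnj2, which were lower. Over both experiments there were 10, or 11.5%, where 12.4% of all passed (3 higher, background 4.72%, and 7 lower, background 7.68%). The split into higher and lower depended on the scaling of the arrays. Over both experiments it was 5 higher and 3 lower after quantile normalization, 12 higher and 1 lower with each array centred on its median over gene probe sets, and 2 higher and 12 lower with each array centred on its median over all probe sets, the last chosen after seeing the data. The whole array turned with it: of all gene probe sets with an unadjusted p under 0.05 over both, 38.1% were higher on the deposited scale, and 26.0%, 74.8% and 12.6% under those scalings. In experiment 2 it was 3 and 4, 10 and 1, and 0 and 7 under the same scalings, and in experiment 1 it was 6 and 4, 7 and 2, and 5 and 4. Without control replicate 1 the count in experiment 1 was 5, where 5.17% of all gene probe sets passed. The count in experiment 2 was 4 without control replicate 2 (6.96% of all), 4 without ethanol replicate 3 (7.21%) and 5 without ethanol replicate 2 (7.18%). With each of the 10 arrays left out in turn, the genes with an unadjusted p under 0.05 on all arrays kept a p under 0.05 in 4 to 10 of the 10 fits in experiment 1, in 4 to 8 in experiment 2 and in 3 to 10 over both.

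The experiments share no arrays. Of the 87 genes, 56 had the same sign in both (64.4%, where 57.5% of all gene probe sets had), 26 of them higher (background 25.4%) and 30 lower (background 32.1%). Across the 87 genes the correlation of the experiments' differences was 0.22, the same value as across all 21789 gene probe sets, and genes are not independent replicates. At a difference of at least 1.2-fold there were 2 channel genes in experiment 1 (Kcnk10 and Kcnmb3; 2.30%, where 3.41% of all gene probe sets passed), 0 in experiment 2 (where 1.68% passed) and 0 over both (where 0.610% passed). All ethanol arrays lay above all controls for 17 channel genes in experiment 1 (background 15.1%) and 6 in experiment 2 (background 7.62%), and below them for 21 (background 19.2%) and 8 (background 11.6%). Ethanol and control arrays did not overlap, in the same direction in both experiments, for 1 higher gene, Kcnk6 (1.15%, where 1.47% of all passed), and for 3 lower genes, Kcna1, Kcnc4 and Kcnk5 (3.45%, where 2.82% passed). Kcnk5, which encodes an acid-sensitive leak channel and is named here after its values were seen, differed by only -0.02 ± 0.06 and -0.06 ± 0.05.

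**Figure D2:**
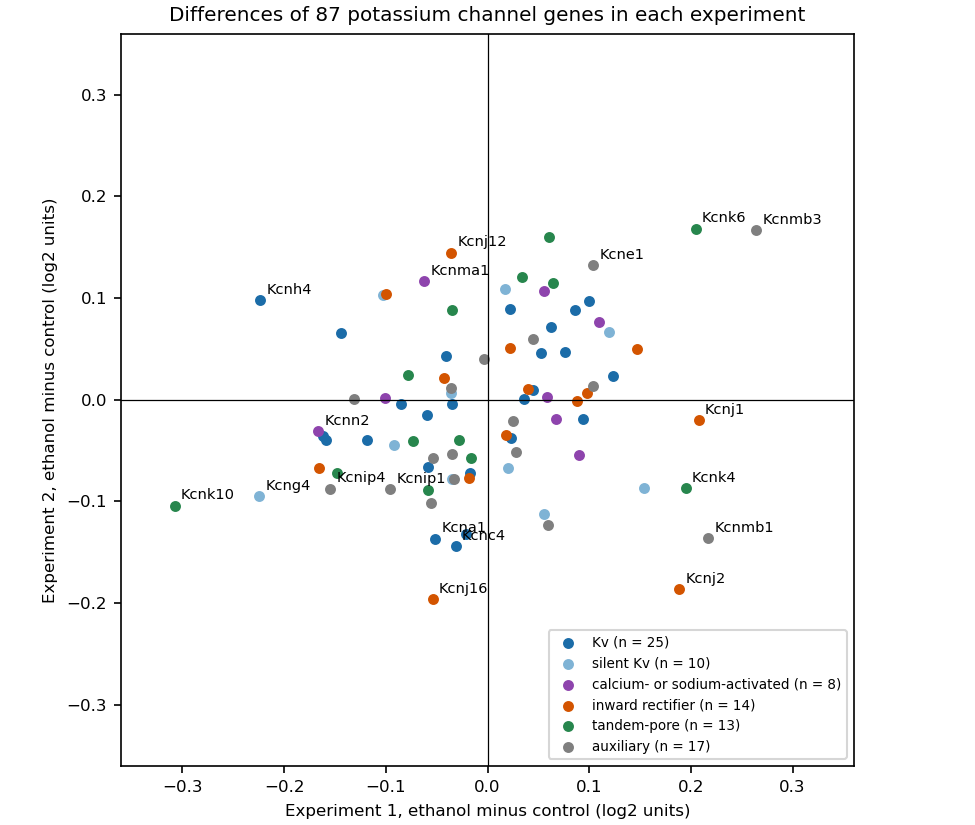
Difference between ethanol and control in experiment 1 (horizontal axis) and experiment 2 (vertical axis), in log2 units, for the 87 genes, coloured by class, with names where the unadjusted limma p was under 0.05 in experiment 1, experiment 2 or over both. Kcnk6 and Kcnmb3 lie alone in the upper right corner, at 0.20 and 0.17 and at 0.26 and 0.17.

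The 250 bases before the transcription start are shown for the 3 genes, of the 10 with an unadjusted p under 0.05 over both experiments, for which the promoter table held exactly 1 start: Kcnmb3, which was higher, and Kcnc4 and Kcng4, which were lower. They are RefSeq sequences of GRCm38.p6, minus strand, at chr3:32491970-32492219 (Kcnmb3), chr3:107458899-107459148 (Kcnc4) and chr8:119635681-119635930 (Kcng4), with the GC box in capitals, here as its reverse complement CCGCCC.
Kcnmb3: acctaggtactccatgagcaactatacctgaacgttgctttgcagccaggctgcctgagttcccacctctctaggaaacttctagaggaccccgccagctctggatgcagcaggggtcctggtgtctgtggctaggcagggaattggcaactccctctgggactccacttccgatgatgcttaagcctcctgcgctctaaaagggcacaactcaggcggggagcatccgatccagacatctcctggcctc
Kcnc4: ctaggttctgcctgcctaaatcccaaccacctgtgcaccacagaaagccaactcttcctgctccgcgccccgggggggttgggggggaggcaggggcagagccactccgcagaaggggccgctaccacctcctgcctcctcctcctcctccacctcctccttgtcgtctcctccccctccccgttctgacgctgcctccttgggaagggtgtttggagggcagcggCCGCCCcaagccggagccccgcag
Kcng4: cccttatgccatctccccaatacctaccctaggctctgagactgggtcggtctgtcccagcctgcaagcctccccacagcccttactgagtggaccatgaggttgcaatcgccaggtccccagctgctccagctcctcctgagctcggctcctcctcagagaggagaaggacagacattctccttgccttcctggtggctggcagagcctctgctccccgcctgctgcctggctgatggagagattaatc
The windows held 6 CG pairs (GC content 57.2%), 12 (68.0%) and 4 (60.4%). Both motifs below were searched on both strands. The TATA box TATAAA was found in none of the 3 windows, and the GC box GGGCGG once, in Kcnc4. Of 92 windows listed for 67 of the 87 channel genes, 2 held TATAAA (2.17%) and 41 held GGGCGG (44.6%). The shares were 12.4% and 32.7% of all 32851 windows in the table, and 11.6% and 42.6% of the 21263 windows of protein-coding genes. A match is a run of letters, and no binding was measured here.

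Among the 25 voltage-gated pore-forming subunits, 11 were higher and 14 lower over both experiments (median -0.02), and those with an unadjusted p under 0.05 were Kcna1 and Kcnc4, both lower. The class split 14 and 11 under median centring over gene probe sets, 13 and 12 after quantile normalization and 7 and 18 under median centring over all probe sets. Kcna1 encodes a low-threshold channel of axons whose loss causes seizures and ataxia. Its levels were 10.82 and 10.83 on the controls and 10.78 and 10.76 on the ethanol arrays of experiment 1. In experiment 2 they were 10.91, 10.85 and 10.83 on the controls and 10.70, 10.74 and 10.74 on the ethanol arrays. The ethanol arrays lay below the controls in both experiments, with no overlap. The difference was -0.05 ± 0.06 in experiment 1, -0.14 ± 0.05 in experiment 2 (limma adjusted p = 0.409) and -0.10 ± 0.04 over both (limma adjusted p = 0.343), a 1.07-fold difference. Its unadjusted p over both was under 0.05 in 6 of 8 alternatives.

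Kcnc4 encodes a fast channel that helps end the action potential. Its controls read 8.98 and 8.95 and its ethanol arrays 8.93 and 8.94 in experiment 1. In experiment 2 the controls read 9.07, 9.03 and 8.97 and the ethanol arrays 8.81, 8.93 and 8.89. These groups also did not overlap, by a margin of hundredths of a log2 unit in experiment 1. Kcnc4 differed by -0.03 ± 0.06 and -0.14 ± 0.05 in the experiments and by -0.10 ± 0.04 over both (limma adjusted p = 0.379). Its relative Kcnc1, the channel of fast-spiking interneurons and cerebellar granule cells, differed by -0.16 ± 0.09 and -0.04 ± 0.07. Its lowest arrays were the second ethanol array of experiment 1 (9.25, controls 9.62 and 9.44) and the third of experiment 2 (9.38, controls 9.40, 9.48 and 9.54). Those arrays also had the lowest cerebellar granule cell marker means of their experiments, 10.32 and 10.43, and the part of that in the result was not tested. All 3 Kcnc genes were lower over both experiments, but 1 of them was higher after quantile normalization or median centring over gene probe sets.

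The other voltage-gated subunits on the fixed list of brain channels differed by less than 0.10. Kcna2, a partner of Kcna1 along axons, differed by 0.01 ± 0.05 over both experiments, and its second probe set by -0.00, with a range of 11.46 to 11.64 over the 10 arrays in the first. Kcnd2, which carries the A-type current of dendrites, differed by -0.06 ± 0.05. All 3 Kcnd genes were lower over both experiments under each of the 4 scalings, with no unadjusted p under 0.05. By level, Kcnd1 lay in the third of 4 bins and the other Kcnd genes in the highest. In those bins 22.7% and 22.5% of all gene probe sets were above 0 on the deposited scale. Kcnd2 was again lowest on the second ethanol array of experiment 1 (11.29) and the third of experiment 2 (11.25), where the other 8 arrays ran from 11.38 to 11.45. Kcnq3, a subunit of the M-current that restrains repetitive firing, differed by 0.02 ± 0.04.

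Kcnh4, of the ether-a-go-go family, was the voltage-gated subunit that behaved least alike in the experiments. In experiment 1 the controls read 7.08 and 7.16 and the ethanol arrays 6.95 and 6.84. In experiment 2 the controls read 7.01, 6.94 and 6.92 and the ethanol arrays 7.11, 6.99 and 7.07. The groups were apart in experiment 1 and overlapped in experiment 2. Its difference was -0.22 ± 0.07 in experiment 1 (limma adjusted p = 0.393) and 0.10 ± 0.06 in experiment 2. The change of 0.32 ± 0.09 between experiments had the smallest p of the channel genes for that term (limma adjusted p = 0.665).

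Silent subunits form no channel alone and modify the Kcnb channels with which they assemble. Of 10 measured, 4 were higher and 6 lower over both experiments (median -0.02; 5 and 5, and 2 and 8, under the respective median centrings), and 1 had an unadjusted p under 0.05, Kcng4. Its controls read 7.64 and 7.50 and its ethanol arrays 7.39 and 7.29 in experiment 1. In experiment 2 the controls read 7.35, 7.60 and 7.56 and the ethanol arrays 7.45, 7.47 and 7.31. The groups did not overlap in experiment 1 and overlapped in experiment 2. Kcng4 differed by -0.22 ± 0.09 and -0.09 ± 0.08, and by -0.15 ± 0.06 over both (limma adjusted p = 0.363). Its lowest ethanol arrays were again the second ethanol array of experiment 1 and the third of experiment 2, where the cerebellar marker means were lowest (10.32 and 10.43), and their part was not tested.

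Of the 8 channels grouped as the calcium- or sodium-activated class, 6 were higher and 2 lower over both experiments, and 0 had an unadjusted p under 0.05 there. That majority depended on the scaling, with 4 and 4 after quantile normalization and 3 and 5 under median centring over all probe sets. Kcnma1 encodes the large-conductance BK channel, a known target of ethanol in neurons. Its controls read 11.05 and 11.01 and its ethanol arrays 10.94 and 10.99 in experiment 1. In experiment 2 the controls read 10.88, 10.95 and 10.98 and the ethanol arrays 11.03, 11.07 and 11.07. The ethanol arrays were thus below the controls in experiment 1 and above them in experiment 2. The differences were -0.06 ± 0.06 and 0.12 ± 0.05 (limma adjusted p = 0.475 in experiment 2), and 0.04 ± 0.05 over both. A second probe set of Kcnma1 gave -0.02 and 0.10.

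The small-conductance channels follow the action potential with a slow hyperpolarization. Kcnn2, the subunit for which this current is best known in the hippocampus and cerebellum, differed by -0.17 ± 0.08 in experiment 1 (limma adjusted p = 0.555) and -0.03 ± 0.06 in experiment 2. Its controls read 9.39 and 9.29 and its ethanol arrays 9.13 and 9.22 in experiment 1. Its unadjusted p was under 0.05 there in 2 of the 9 alternatives that leave out no array. Kcnt1, a sodium-activated channel, differed by -0.04 ± 0.06 over both experiments.

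Inward rectifiers split 8 higher and 6 lower over both experiments (median 0.02), and 6 and 8 under median centring over all probe sets. Of the 14, 1 had an unadjusted p under 0.05, Kcnj16. Kcnj16 encodes a subunit that joins the astrocyte channel Kcnj10. The controls of Kcnj16 read 8.30 and 8.34 and its ethanol arrays 8.31 and 8.22 in experiment 1. In experiment 2 the controls read 8.28, 8.46 and 8.44 and the ethanol arrays 8.31, 8.19 and 8.08. The groups overlapped in both experiments. Kcnj16 differed by -0.05 ± 0.09 and -0.20 ± 0.07 (limma adjusted p = 0.409 in experiment 2), and by -0.14 ± 0.06 over both (limma adjusted p = 0.362). Kcnj10 differed by -0.02 ± 0.08 and -0.08 ± 0.06. In experiment 2 the 6 astrocyte markers averaged 10.58 to 10.62 on the ethanol arrays against 10.67 to 10.71 on the controls (0 higher and 6 lower). The 6 choroid plexus markers averaged 8.15 to 8.32 against 8.42 to 8.54 (0 higher and 6 lower). Their part in the value of Kcnj16 was not tested.

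Kcnj3, Kcnj6 and Kcnj9 encode the G protein-gated channels by which many transmitter receptors inhibit neurons and which ethanol opens directly. None had an unadjusted p under 0.05. Kcnj9 read 8.72 and 8.69 on the controls and 8.56 and 8.52 on the ethanol arrays of experiment 1 (-0.17 ± 0.08). In experiment 2 it differed by -0.07 ± 0.07. Kcnj6 differed by -0.10 ± 0.07 and 0.10 ± 0.06, and Kcnj3 by -0.04 ± 0.08 and 0.02 ± 0.06. Kcnj11, the pore of the ATP-sensitive channel that couples metabolism to excitability, differed by 0.04 ± 0.05 over both experiments.

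Kcnj2 and Kcnj12 encode strong inward rectifiers that hold the resting potential, and both lay on opposite sides of their controls in the experiments. Kcnj2 read 7.64 and 7.74 on the controls and 7.99 and 7.76 on the ethanol arrays of experiment 1. In experiment 2 it read 8.02, 7.80 and 7.81 on the controls and 7.78, 7.58 and 7.71 on the ethanol arrays. The ethanol arrays were all above the controls in the first case and all below them in the second. The differences were 0.19 ± 0.10 and -0.19 ± 0.08. Kcnj12 differed by -0.04 ± 0.07 and 0.14 ± 0.06 (limma adjusted p = 0.439 in experiment 2), with controls of 7.08, 6.90 and 6.92 and ethanol arrays of 7.10, 7.13 and 7.11 in experiment 2. Kcnj1, a renal channel with low levels here, differed by 0.21 ± 0.06 in experiment 1, the smallest p of the channel genes there (limma adjusted p = 0.384), and by -0.02 ± 0.05 in experiment 2. It read 5.37 and 5.41 on the controls and 5.60 and 5.60 on the ethanol arrays of experiment 1.

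The tandem-pore channels, which carry background potassium current, held the member with the smallest p over both experiments, Kcnk6, and the lowest difference, Kcnk10. Of 13 measured, 6 were higher and 7 lower over both (median -0.02), and 7 and 6 after quantile normalization or median centring over gene probe sets. Kcnk6 read 7.10 and 7.10 on the controls and 7.34 and 7.27 on the ethanol arrays of experiment 1. In experiment 2 it read 7.23, 6.97 and 7.15 on the controls and 7.29, 7.27 and 7.29 on the ethanol arrays. Each ethanol array was above each control of its experiment. Kcnk6 was higher by 0.20 ± 0.08 and 0.17 ± 0.06, and by 0.18 ± 0.05 over both, or 1.14-fold (limma adjusted p = 0.306). In experiment 1 its unadjusted p was under 0.05 in 7 of the 10 fits with an array left out. In experiment 2 this held in 7 of 10 as well, and the difference there was 0.10 without control replicate 2, its lowest array and the one with high olfactory mucosa markers, whose part was not tested. Over both experiments its unadjusted p stayed under 0.05 in each of 8 alternatives and without each of the 10 arrays, with differences of 0.15 to 0.22 in the latter.

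Kcnk10 encodes a mechano- and lipid-gated leak channel of neurons. It read 8.61 and 8.62 on the controls and 8.48 and 8.13 on the ethanol arrays of experiment 1. In experiment 2 it read 8.58, 8.48 and 8.48 on the controls and 8.38, 8.51 and 8.33 on the ethanol arrays. The arrays were apart in experiment 1 and overlapped in experiment 2. Kcnk10 differed by -0.31 ± 0.10 in experiment 1, 1.24-fold (limma adjusted p = 0.426), by -0.10 ± 0.08 in experiment 2 and by -0.19 ± 0.07 over both (limma adjusted p = 0.342). The value in experiment 1 rested on ethanol replicate 2. It was -0.13 without that array and -0.49 ± 0.09 without ethanol replicate 1 (adjusted p = 0.0304, where 235 of the 21789 gene probe sets also passed), a fit in which the remaining ethanol array borrows its spread from the other groups. That array and the third ethanol array of experiment 2, the lowest arrays of Kcnk10, had the lowest cerebellar granule cell marker means (10.32 and 10.43), and their part was not tested.

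The second ethanol array of experiment 1 and the third of experiment 2 were both the lowest ethanol arrays for 16 of the 87 channel genes (18.4%), where 19.3% of all gene probe sets showed this combination. Kcnk4, a mechano-gated relative of Kcnk10, differed by 0.20 ± 0.08 in experiment 1 (limma adjusted p = 0.493) and -0.09 ± 0.06 in experiment 2. Kcnk1, a weak leak channel found in neurons and astrocytes, differed by -0.08 ± 0.04 over both and was below the control mean on 5 of 5 ethanol arrays. Kcnk2 differed by -0.05 ± 0.07.

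Auxiliary subunits split 6 higher and 11 lower over both experiments (median -0.02), 9 and 8 under median centring over gene probe sets and 4 and 13 over all probe sets. An unadjusted p under 0.05 was found for 4 of 17, where 12.4% of all gene probe sets had one, 2 in each direction. Kcnmb3, a beta subunit of the BK channel, had the highest difference of the 87 genes. It read 6.30 and 6.25 on the controls and 6.55 and 6.53 on the ethanol arrays of experiment 1. In experiment 2 it read 6.17, 6.49 and 6.31 on the controls and 6.51, 6.48 and 6.48 on the ethanol arrays. The groups were apart in experiment 1, and in experiment 2 control replicate 2 lay among the ethanol arrays. Kcnmb3 was higher by 0.26 ± 0.09, by 0.17 ± 0.07, and by 0.21 ± 0.06 over both, or 1.15-fold (limma adjusted p = 0.306). In experiment 2 its unadjusted p was under 0.05 in only 4 of 9 alternatives and 5 of 10 fits with an array left out, and the difference was 0.09 without control replicate 1 and 0.25 without control replicate 2. Its unadjusted p over both also stayed under 0.05 in each of 8 alternatives and without each of the 10 arrays, with differences of 0.17 to 0.26 in the latter. The brain beta subunit Kcnmb4 differed by -0.05 ± 0.06.

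Kcnmb1, the beta subunit of smooth muscle, read 5.66 and 5.93 on the controls and 5.95 and 6.08 on the ethanol arrays of experiment 1, and 6.09, 5.92 and 5.92 on the controls and 5.83, 5.83 and 5.85 on the ethanol arrays of experiment 2. The groups stood on opposite sides in the experiments. The differences were 0.22 ± 0.09 (limma adjusted p = 0.537) and -0.14 ± 0.08. The value in experiment 1 was 0.08 without control replicate 1 and 0.35 without control replicate 2, and its unadjusted p was under 0.05 in 5 of 9 alternatives. Kcne1, a single-span subunit best known from the heart, was higher by 0.12 ± 0.05 over both (limma adjusted p = 0.342) and was above the control mean on 5 of 5 ethanol arrays. Its levels, 5.14 to 5.37, lay in the lowest of 4 bins of level.

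The Kcnip genes encode calcium-binding partners of the Kcnd channels. All 4 were lower over both experiments on the deposited scale, but 1 was higher after quantile normalization and 2 with median centring over gene probe sets. Kcnip4 read 12.06 and 11.91 on the controls and 11.91 and 11.76 on the ethanol arrays of experiment 1, and 11.99, 11.94 and 11.93 on the controls and 11.94, 11.86 and 11.80 on the ethanol arrays of experiment 2. It differed by -0.11 ± 0.05 over both (limma adjusted p = 0.375), with an unadjusted p under 0.05 in 5 of 10 fits with an array left out. Its lowest arrays, at 11.76 and 11.80, were again those with the lowest cerebellar granule cell marker means (10.32 and 10.43), and their part was not tested. Kcnip1, named here because it completes the 10 genes with a p under 0.05, differed by -0.09 ± 0.04 (limma adjusted p = 0.38). All 3 Kcnab genes, whose proteins bind Kcna channels, were lower over both experiments under each of the 4 scalings. Kcnab2 was at -0.06 ± 0.04, and none had a p under 0.05. All 3 lay in the highest of 4 bins of level, where 22.5% of all gene probe sets were above 0 on the deposited scale.

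**Figure D3:**
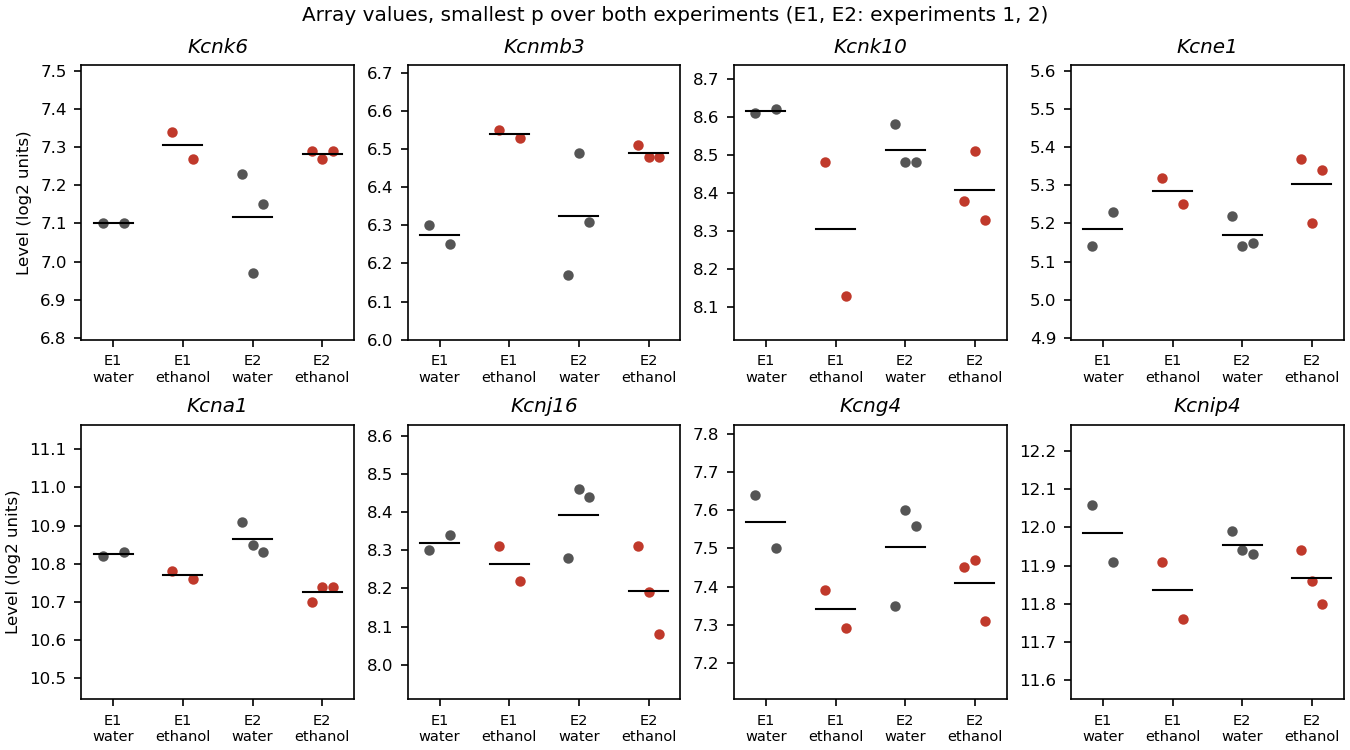
Level on each array (vertical axis, log2 units, each panel spanning the same range) of the 8 channel genes with the smallest p over both experiments; grey points are controls (water), red points are ethanol arrays, and lines are group means. Kcnk6 and Kcna1 show no overlap in either experiment, and Kcnk10 shows 1 low ethanol array (8.13) in experiment 1.

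The difference between the experiments was tested itself, as experiment 2 minus experiment 1. An unadjusted limma p under 0.05 was found for 8 channel genes (9.20%, where 6.57% of all gene probe sets passed), 3 with a higher and 5 with a lower value in experiment 2 (backgrounds 3.33% and 3.24%), and for 0 at adjusted p 0.05 (smallest adjusted p = 0.665, background 0.00%). The term was above 0 for 41 channel genes (background 47.3%) and at least 1.2-fold for 4 (background 5.85%). The 8 genes with an unadjusted p under 0.05 were Kcnh4, Kcnj1, Kcnj2, Kcnk4, Kcnmb1, Kcnv2, Kcnma1 and Kcnv1, the last named to complete the count. Kcnv1 and Kcnv2, silent subunits of cortical neurons and of photoreceptors, differed by -0.24 ± 0.11 and 0.21 ± 0.09 between experiments. With each array of experiment 2 left out in turn the count was 6 to 8, where 5.23% to 7.53% of all gene probe sets passed. Leaving out control replicate 1 of experiment 1 left 1 control array there. In that fit fewer channel genes passed, while the share of all gene probe sets was almost unchanged. The count of 8 thus depended on that array. Over the 10 fits with an array left out, the term ran from 0.27 to 0.37 for Kcnh4. It ran from -0.49 to -0.26 for Kcnj2 and from -0.49 to -0.22 for Kcnmb1. For 5 genes the ethanol arrays lay on opposite sides of all controls in the experiments (5.75%, where 1.95% of all gene probe sets did).

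**Figure D4:**
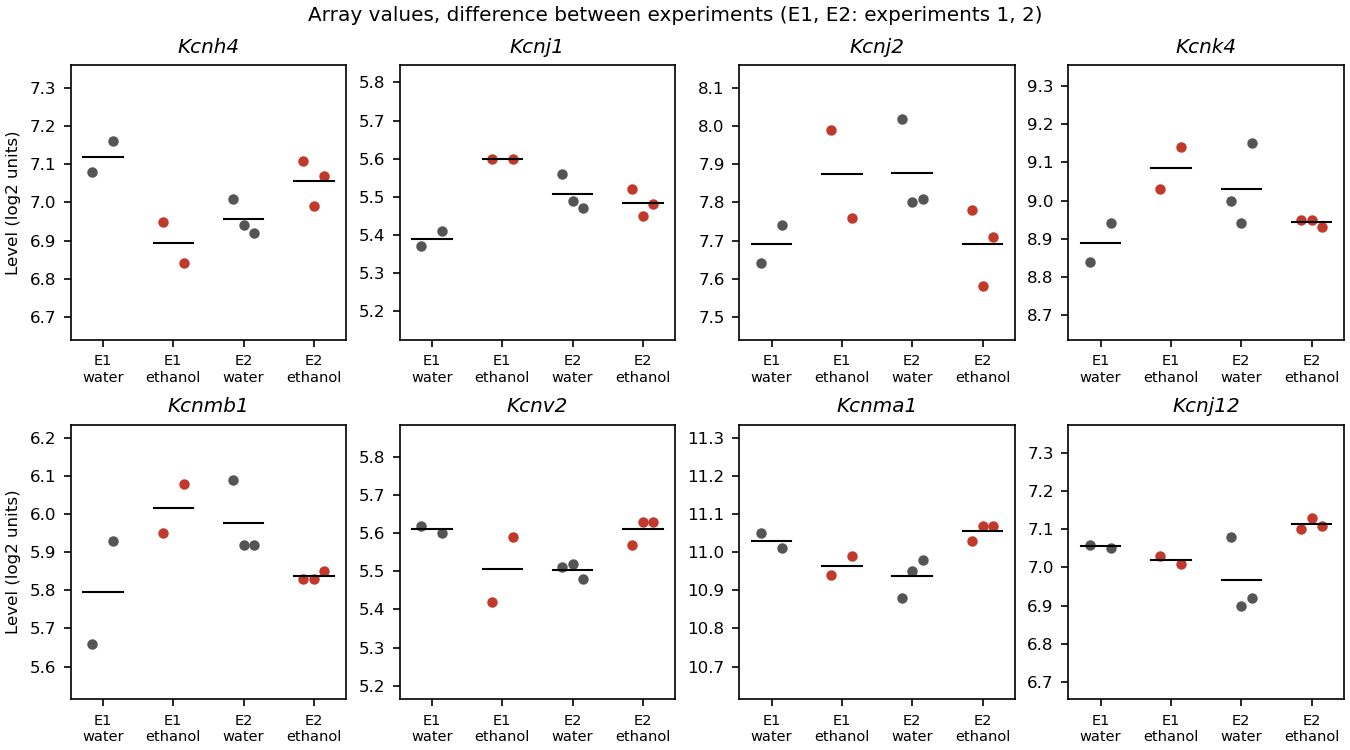
Level on each array (vertical axis, log2 units, each panel spanning the same range) of 7 channel genes with an unadjusted p under 0.05 for the difference between experiments and of Kcnj12; grey points are controls (water), red points are ethanol arrays, and lines are group means. Kcnj2 and Kcnmb1 are higher on ethanol arrays in experiment 1 and lower in experiment 2, and Kcnma1, Kcnj12 and Kcnv2 the reverse.

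The sign of a channel gene's difference went with its signal level, as it did over the whole array. All gene probe sets were split by mean level into 4 bins of equal size. Among the 13 channel genes of the lowest bin, 11 were above 0 (84.6%, where 79.3% of all gene probe sets in that bin were). In the second bin 14 of 21 were higher (66.7%, where 57.9% were), in the third 7 of 26 (26.9%, where 22.7% were) and in the highest 9 of 27 (33.3%, where 22.5% were). All 3 genes that were higher at an unadjusted p under 0.05 over both experiments (Kcnk6, Kcnmb3 and Kcne1) lay in the lower 2 bins, and all 7 that were lower lay in the upper 2. In the second bin, which holds Kcnk6 and Kcnmb3, 466 gene probe sets were higher and 246 lower at that p. The files give no detection call, so a channel gene in the lowest bin cannot be told apart from background signal.

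**Figure D5:**
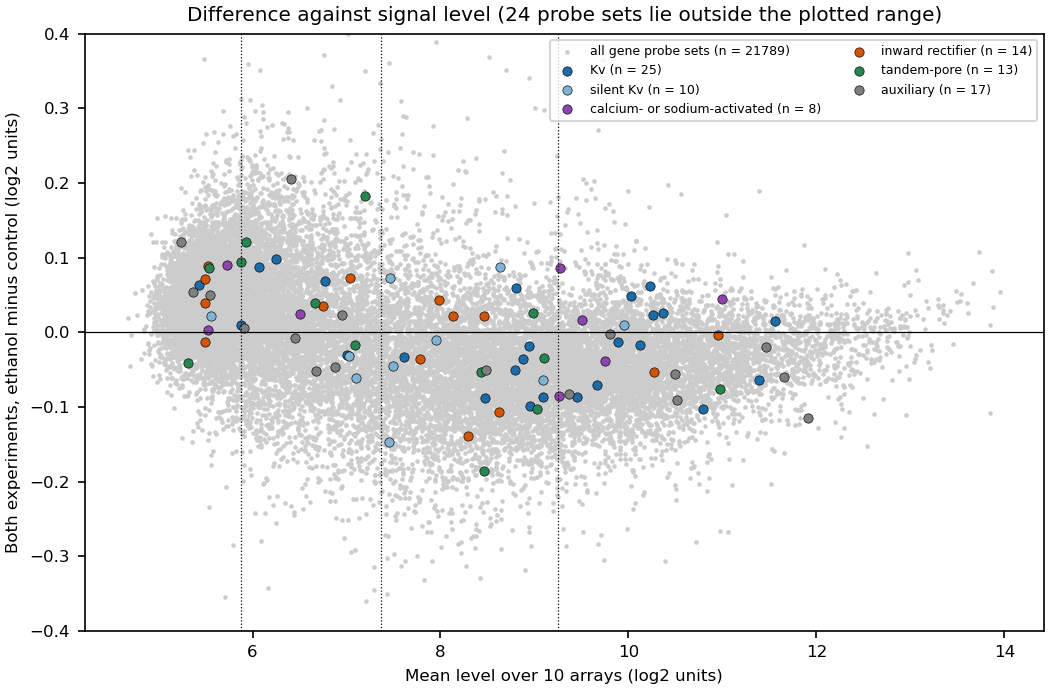
Difference between ethanol and control over both experiments (vertical axis, log2 units) against the mean level over the 10 arrays (horizontal axis, log2 units) for all gene probe sets (grey) and the 87 channel genes (coloured by class); dotted lines part the 4 bins of level and 24 probe sets lie beyond the plotted range. Channel genes of low level lie mostly above 0 and those of high level mostly below, along the grey cloud.

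Proteins that work with these channels but carry other symbols were taken as a list of 28, of which 26 were measured. Over both experiments 13 were higher and 13 lower (median -0.01), and 0 had an unadjusted limma p under 0.05. In experiment 2 there were also 0, and in experiment 1 there was 1 (3.85%, where 8.95% of all gene probe sets passed). This was Abcc8, the sulfonylurea receptor that surrounds the Kcnj11 pore, at -0.20, with 0.04 in experiment 2.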

How the data were processed

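Per the labels' protocols, 200 ng of whole-brain RNA were labelled for each of 10 Affymetrix arrays. The authors deposited log2 levels, 1 per probe set and array. The submitters' processing notes list Partek 6.6, and the sources used here do not state the background correction, normalization or any batch step. The experiments had equal means per probe set, and how this arose is not stated.

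Groups came from the sample titles. Of 35556 probe sets, 21789 carried 1 symbol in the platform annotation, and RefSeq (GRCm38.p6) changed 0 of these. All were fitted with limma 3.58.1 in R 4.3.3 (lmFit, eBayes), with 1 mean per group (6 residual degrees of freedom), or with terms for experiment and treatment over both (7). P-values were two-sided and adjusted by Benjamini-Hochberg over all 21789.

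Genes were named if among the 8 smallest p under 0.05 in experiment 1, experiment 2 or both, among the 6 smallest for the difference between experiments, at least 1.2-fold different, or on a fixed list of 21 brain channels. Members, lists and rules were chosen with earlier results of these data known. On simulated data of 21789 genes, the comparison over both experiments called 26 of 50 genes changed by 0.25 log2 units and 50 of 50 changed by 0.5. The numbers called were 6 and 34 in experiment 1, and 14 and 45 in experiment 2. The simulated noise was independent and normal, with gene spreads shuffled and no array scaling or link to signal level. In it 1090 of 21589 unchanged genes had an unadjusted p under 0.05 over both, where 12.4% of the real gene probe sets had. The numbers called therefore need not hold for the deposited data. Alternatives were quantile normalization, median centring, a level filter, all probe sets, each experiment alone, an unmoderated model, a replicate block, gene means and left-out arrays. Figures were drawn with matplotlib 3.10.9.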

Additional observations from a re-analysis of the deposited data

Results flagged for a closer look

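In 5 channel genes every ethanol array lay on one side of every control in experiment 1 and on the other side in experiment 2. The difference between experiments (experiment 2 minus experiment 1, limma) was -0.37 for Kcnj2, -0.35 for Kcnmb1, 0.21 for Kcnv2, 0.18 for Kcnma1 and 0.18 for Kcnj12. None passed after adjustment over all gene probe sets (limma adjusted p from 0.679 to 0.785). Over all gene probe sets 1.95% showed such a pattern. Groups of 2 and 3 arrays were not searched for outlying arrays.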

How the results depend on the processing

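At adjusted p 0.05 there were 0 channel genes in each comparison under each alternative, with the exception of 1 (Kcnk10) in experiment 1 without ethanol replicate 1, so the left-out arrays gave 0 to 1. In that fit 235 of the 21789 gene probe sets passed, so the call is not particular to Kcnk10. At an unadjusted p under 0.05 the number over both experiments was 8 to 14, against 10, under the alternatives that keep all arrays. The share of all tested probe sets ran from 8.52% to 15.5% there, against 12.4%. For the difference between experiments it was 5 with the filter at the 25th percentile, which tests 74 of the 87 genes, and 5 with the replicate block, against 8; the cause of the latter was not tested. Deviations of same-numbered arrays from their group means had correlations of -0.05 and -0.05 in experiment 1, and 0.01, -0.15 and 0.23 in experiment 2. With 2 arrays a group, the values of experiment 1 are equal by construction. Whether same-numbered arrays shared a litter, day or batch is not stated and was not tested. The replicate block gave 9 genes in experiment 1 (9.29% of all gene probe sets passed), 7 in experiment 2 (10.0%) and 8 over both (12.1%). Leaving out each array gave 5 to 13 in experiment 1, 4 to 11 in experiment 2, 7 to 12 over both and 2 to 9 for the difference between experiments. The share of all gene probe sets varied too. Without an array of experiment 2 it was 7.77% to 8.70% in experiment 1 and 6.96% to 11.5% in experiment 2. It was 9.78% to 11.9% over both and 5.23% to 7.53% for the difference between experiments. In experiment 1 the lowest and highest counts came from the fits with the lowest and highest share. For the difference between experiments the lowest count did not. The median difference of the channel genes over all alternatives ran from -0.032 to 0.010 in experiment 1, -0.044 to 0.028 in experiment 2 and -0.035 to 0.022 over both. The number of arrays limits the precision, and signal over background is unknown because the values carry no detection call.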
